A study of Mus musculus with 2 samples.

Results

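The collagen genes were taken as every gene symbol in the deposited feature lists made of Col, a number, the letter a and a number, which gave 44 genes of 32285 features. Their RNA was measured cell by cell with a droplet assay that reads the 5′ end of transcripts. The cells came from tumours grown under the skin of mice, 1 library from animals on control food and 1 from animals on food without serine and glycine. The labels give no number of mice, strain, age, tumour cell line or time on the diet, and no allele or other agent. Diet is the only difference they name, and it cannot be told apart from differences in animals, tumours or library preparation. The design text does not say whether a library pools animals. With 1 library per diet there was no replicate check and no test between diets was possible. Levels are sums of unique molecular identifiers (UMIs, each tagging 1 captured RNA molecule) over a cell class, scaled to a class total of 1000000 UMIs and written CPM. Median log2 ratios over genes are of CPM plus 5. Intervals are exact 95% intervals that cover counting error only.

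Collagens are proteins of 3 polypeptide chains wound into a triple helix in which glycine recurs at regular steps, with much proline and hydroxyproline between. Fibrillar collagens, mainly types I and III, form the fibres of connective tissue and are made chiefly by fibroblasts, while type IV forms the sheet of basement membranes and type VI a beaded network around cells. Fibril-associated collagens such as types XII, XIV and XVI sit on the surface of fibres, and types XV and XVIII carry sugar chains near basement membranes.

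The control library held 8466 barcodes and 161332426 UMIs, and the serine/glycine-free library 7999 barcodes and 157234945 UMIs. Of these, 8262 and 7913 cells were kept (300 or more genes detected, no more than 20% of UMIs mitochondrial). A total of 104 barcodes occurred in both libraries. Of the 44 collagens, 34 had at least 60 UMIs over both libraries. The other 10 were Col25a1, Col4a3, Col8a2, Col19a1, Col11a1, Col26a1, Col6a4, Col9a2, Col2a1 and Col9a1. Col2a1, the cartilage collagen, had 0 and 1 UMI, and Col9a1 had no UMI in either library.

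Cells were sorted by marker UMIs. Fibroblasts had at least 1 UMI of Pdgfra or Pdgfrb, receptors for platelet-derived growth factor, and none of Krt20, Ptprc or Pecam1. Tumour cells had at least 1 UMI of Krt20, an epithelial keratin, and none of Ptprc, the pan-leukocyte gene. Macrophages had at least 0.1% of their UMIs in the complement genes C1qa, C1qb and C1qc and no Krt20. These rules gave 906 fibroblasts, 4121 tumour cells and 694 macrophages in the control library, and 537, 4613 and 632 in the serine/glycine-free library. T cells, 170 and 220, served as a class that should lack collagen RNA. They had at least 1 UMI of Cd3d, Cd3e or Cd3g, at least 1 of Ptprc and none of Krt20, the C1q genes, Pdgfra or Pdgfrb. Of all cells kept, 2543 control and 2133 serine/glycine-free cells fell in none of the fibroblast, tumour and macrophage classes, and 2 cells of each library fell in both the fibroblast and the macrophage class.

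The fibroblast class was mixed. Of 7 further fibroblast markers (Thy1, Dpt, Pi16, Fap, Postn, Mfap5 and Clec3b), 495 of the 906 control cells and 292 of the 537 serine/glycine-free cells had no UMI at all. Cells with at least 3 of the 7 numbered 78 and 35. Collagen made up 30088 CPM (29789 to 30389) and 21364 CPM (20988 to 21745) in those cells, which is 3.01% and 2.14% of their UMIs. In cells with 1 or 2 of the markers it made up 2683 and 2092 CPM, and in cells with none 1549 and 1420 CPM. Tumour cells held 1011 CPM (1005 to 1017) and 1076 CPM (1070 to 1082), so the marker-free cells were at 1.53 (1.5 to 1.56) and 1.32 (1.29 to 1.36) times their level. Per cell, the median collagen level was 1486 CPM with no marker, 13708 CPM with 3 markers and 41196 CPM with all 7 in the control library. The number of markers was not chosen on collagen, but it was chosen after the data had been seen. Cells with at least 3 markers are called marker-rich fibroblasts here, and cells with none are called marker-free cells of the fibroblast class.

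**Figure D1:**
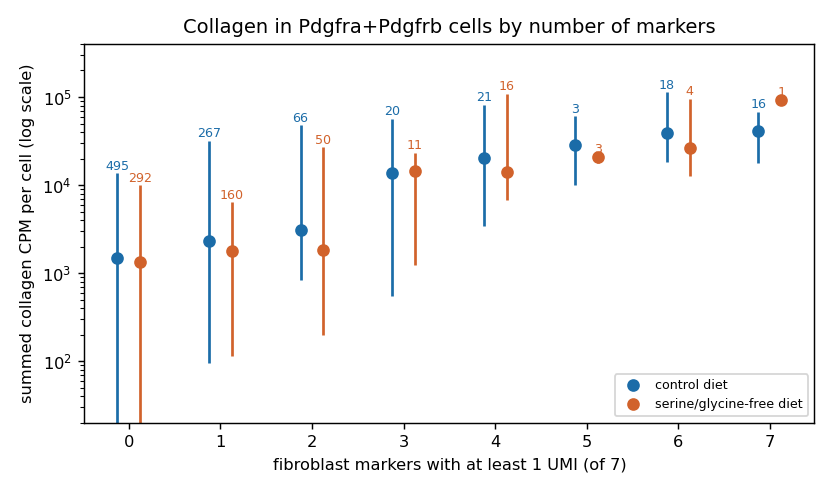
Summed collagen level per cell (vertical axis, CPM, log scale) against the number of 7 fibroblast markers detected (horizontal axis) in the fibroblast class. Points are medians, lines run from the lowest to the highest cell (cut at the axis where a cell had 0) and numbers are cells; the medians are 3110 CPM or less with 2 or fewer markers and 13708 CPM or more with 3 or more.

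The label of the tumour class rests on Krt20 with little else of an epithelium. Tumour cells had 158 and 248 CPM of Krt20 and 24.1 and 19.6 CPM of Krt18, while Krt8 stood at 0.653 and 0.303 CPM. Krt19, Krt7, Epcam, Cdh1 and Cldn4 were each under 1 CPM in both libraries, and at 0 for Krt19 in the control library and for Epcam and Cldn4 in the serine/glycine-free library. Of 11 fibroblast markers listed here, all 11 were above 0 in the tumour class and 5 were at 5 CPM or more. Dcn, a small proteoglycan that binds collagen fibres, made up most of their sum at 259.6 and 497 CPM. The macrophage class held all 8 macrophage markers, summing to 28666 and 29259 CPM.

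Each cell class had its own collagen order. In marker-rich fibroblasts Col3a1 came first in the control library at 10241 CPM (10067 to 10417), followed by Col1a1 at 7258 CPM and Col1a2 at 5255 CPM. In the serine/glycine-free library Col1a1 came first at 5632 CPM (5439 to 5829), then Col3a1 at 5106 CPM (4923 to 5294), with intervals that do not overlap, and Col1a2 at 4387 CPM. These genes encode the chains of collagens III and I, the main fibre collagens of skin and stroma. Together they hold most collagen UMIs of that class: Col3a1 34.0% and 23.9%, Col1a1 24.1% and 26.4%, Col1a2 17.5% and 20.5%. A UMI counts a molecule once whatever its length, so levels of different genes are compared without a length correction.

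Tumour cells carried Col1a2 and Col8a1 above all other collagens. Col1a2, the second chain of collagen I, stood at 357 CPM (353 to 360) and 388 CPM (384 to 391). Col8a1, a chain of the short-chain network collagen VIII of vessel walls and the cornea, stood at 185 CPM (183 to 188) and 170 CPM (168 to 173). Col3a1 followed at 122 and 114 CPM, and Col1a1 at 82.6 and 86.2 CPM, the same order in both libraries. Below these lay the basement membrane chain Col4a1 at 52.9 and 82.6 CPM, then Col16a1 at 37.8 and 47.4, Col6a1 at 33.5 and 43.9, Col5a1 at 31.4 and 30.5 and Col4a2 at 29.6 and 39.5 CPM. In the serine/glycine-free library Col1a1 and Col4a1 were neighbours whose intervals did not overlap.

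Free RNA was judged from T cells, whose rule leaves out cells with stray Krt20, C1q, Pdgfra or Pdgfrb RNA and may understate it. After thinning every cell to 2000 UMIs, 49.4% of control and 52.4% of serine/glycine-free tumour cells had a UMI of Col1a2, against 2.56% and 0.518% of T cells. Without thinning the shares were 96.8% and 95.9% of tumour cells, at median depths of 25087 and 23206 UMIs, and 2.35% and 1.36% of T cells, at 2784 and 5118 UMIs. For Col8a1 the thinned shares were 31.1% and 27.2% of tumour cells and 0 of 117 (upper bound 3.10%) and 0.518% of T cells; unthinned they were 91.7% and 85.8% of tumour cells and 1.18% and 0.909% of T cells. Both tumour shares lie far above those of the T cells. Summed over all collagens, T cells had 78.4 CPM (53 UMIs) and 37.6 CPM (54 UMIs).

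The 250 bases before the annotated start of the 3 collagens with most UMIs in tumour cells are shown because their levels part ways between the tumour sets described further on. They come from RefSeq on build GRCm38.p6, the assembly that mm10 in the submitters' processing notes stands for, and are written 5′ to 3′ on the gene's strand. Capitals mark every match, on either strand, to 4 motifs: the TATA box, searched as TATAAA; the CAAT box, searched as CCAAT; the core bound by Sp1, searched as GGGCGG; and the core bound by hypoxia-inducible factors, searched as ACGTG. None of the motifs overlapped another in these windows. Col1a2 lies at chr6:4505618-4541543 and its window at chr6:4505368-4505617 on the plus strand; Col3a1 at chr1:45311538-45349706 with its window at chr1:45311288-45311537, also plus; Col8a1 at chr16:57624256-57754737 with its window at chr16:57754738-57754987 on the minus strand.
Col1a2: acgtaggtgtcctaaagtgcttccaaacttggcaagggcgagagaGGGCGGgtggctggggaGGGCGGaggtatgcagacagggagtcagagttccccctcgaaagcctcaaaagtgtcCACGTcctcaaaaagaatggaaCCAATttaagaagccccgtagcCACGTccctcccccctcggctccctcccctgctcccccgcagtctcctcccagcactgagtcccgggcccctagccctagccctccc
Col3a1: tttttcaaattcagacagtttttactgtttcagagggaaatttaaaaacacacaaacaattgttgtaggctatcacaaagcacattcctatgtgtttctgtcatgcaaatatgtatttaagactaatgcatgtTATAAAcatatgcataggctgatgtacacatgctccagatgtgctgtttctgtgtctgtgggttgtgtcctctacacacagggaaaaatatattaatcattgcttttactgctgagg
Col8a1: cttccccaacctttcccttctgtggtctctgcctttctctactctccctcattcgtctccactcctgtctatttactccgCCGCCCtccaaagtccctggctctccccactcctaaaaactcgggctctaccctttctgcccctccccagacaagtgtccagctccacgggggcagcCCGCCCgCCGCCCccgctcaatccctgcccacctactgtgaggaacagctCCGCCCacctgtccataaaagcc
The Col1a2 window held the CAAT box, the Sp1 core and the hypoxia-inducible factor core, the Col3a1 window the TATA box alone, and the Col8a1 window the Sp1 core alone. Among all 32851 windows of 250 bases in the table, 12.4% held the TATA box, 33.8% the CAAT box, 32.7% the Sp1 core and 16.6% the hypoxia-inducible factor core. Of the collagens, 35 of 44 were matched, with 38 windows, of which 5, 13, 22 and 5 held these motifs in the same order. A match is a string of letters, not a measured binding site.

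**Figure D2:**
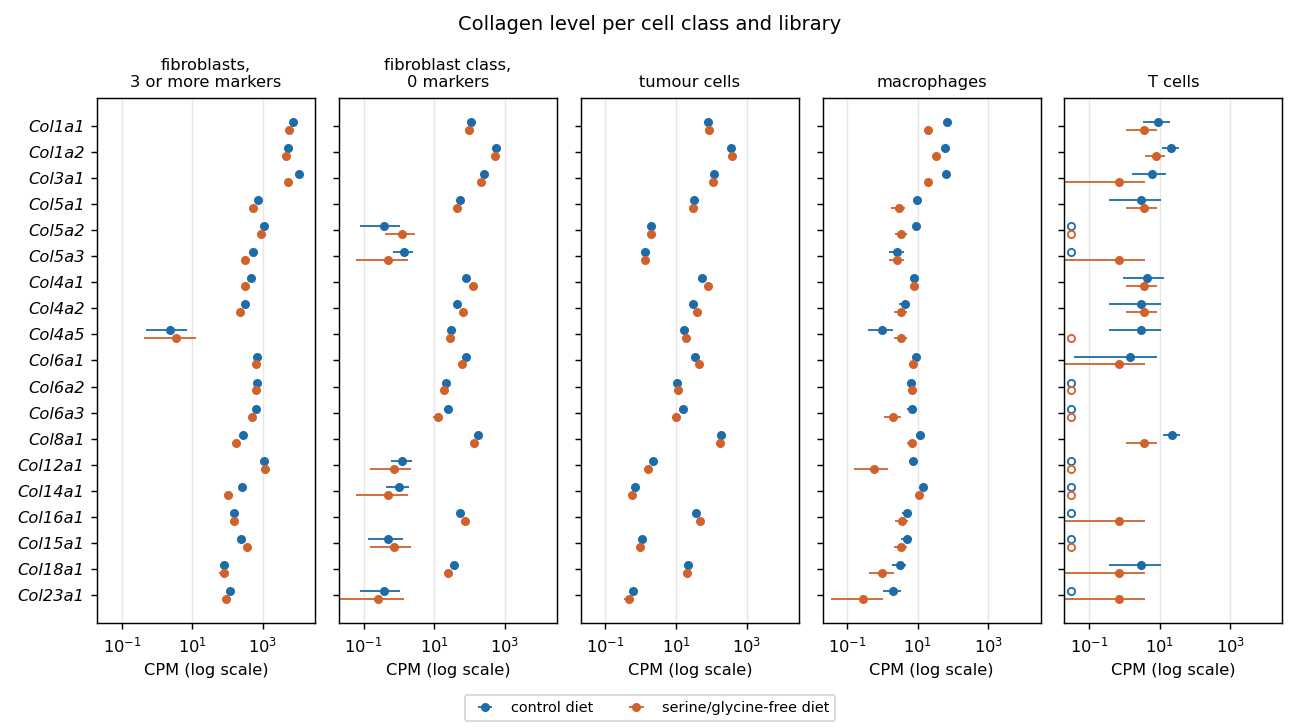
Level of 19 collagens (CPM, log scale) in 5 cell classes, with 95% Poisson intervals; blue is the control and orange the serine/glycine-free library, and open circles at the left edge mark 0 UMIs. Marker-rich fibroblasts lie highest for most genes, tumour cells come nearest to them for Col8a1, and Col4a5 is higher in tumour cells.

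Marker-rich fibroblasts exceeded tumour cells in most collagens. Of 23 collagens with at least 60 UMIs over both sets in the control library, 19 were at least 1.5-fold higher in these fibroblasts, where 25.0% of all genes were, and 3 were at least 1.5-fold lower, where 32.6% were. In the serine/glycine-free library 21 of 25 were higher (24.5% of all genes) and 3 lower (37.5%). The median gene stood at a log2 ratio of -0.13 and -0.21 in the 2 libraries, so the ratios that follow are relative to the median gene, while the counts above are not; in that scaling 20 control and 21 serine/glycine-free collagens were higher and 3 lower in each library. Col5a2, a chain of the minor fibrillar collagen V, was 592-fold and 537-fold higher, and Col12a1, which coats collagen I fibres, 535-fold and 781-fold higher. Col1a1 was 96.2-fold and 75.4-fold higher, and Col1a2 only 16.1-fold and 13.1-fold. Col8a1 was at 1.57 and 1.16, while without that scaling it was at 1.43 (1.28 to 1.59) in the control library and at 170.5 against 170.2 CPM in the serine/glycine-free library. Col4a5, a basement membrane chain, was lower at 0.149 and 0.215, on 3 and 2 UMIs in the fibroblasts against 1860 and 2160 in tumour cells. The other members past the threshold downward, Col10a1 and Col6a5, had 0 UMIs in these fibroblasts and were not detectable at this depth. The fibroblast totals were 1286227 and 574617 UMIs, against 108674193 and 115496959 in tumour cells. A gene near the filter through tumour cells alone is therefore easily called lower, and the shares of all genes called lower carry the same gap.

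A group of 6 collagens from several families was high in marker-rich fibroblasts and near 0 in tumour cells. In marker-rich fibroblasts Col12a1 stood at 1084 and 1107 CPM, Col5a2 at 1049.6 and 886 CPM, Col5a3 at 519 and 309.8 CPM, Col14a1 at 248 and 103 CPM, Col15a1 at 242 and 364 CPM and Col23a1, a membrane-bound collagen, at 116 and 92.2 CPM. In tumour cells each of these 6 was at 2.22 CPM or less in both libraries. Marker-free cells of the fibroblast class had Col5a2 at only 3 and 5 UMIs. The few endothelial cells, 16 and 9, had Col4a1 and Col4a2 as their leading collagens, at 2439 and 2476 CPM and at 1042 and 1499 CPM.

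The proportions between partner chains separated the classes in the same way in both libraries. Collagen I needs a pair of alpha-1 chains, from Col1a1, for each alpha-2 chain, from Col1a2. In marker-rich fibroblasts the ratio of Col1a2 to Col1a1 UMIs was 0.724 (0.702 to 0.747) and 0.779 (0.739 to 0.821). In tumour cells it was 4.32 (4.22 to 4.42) and 4.50 (4.40 to 4.60). Marker-free cells of the fibroblast class had a ratio above that of tumour cells, at 4.92 (4.58 to 5.29) and 5.32 (4.77 to 5.94). For collagen V, the ratio of Col5a2 to Col5a1 was 1.43 and 1.66 in marker-rich fibroblasts but 0.0618 and 0.0624 in tumour cells and 0.00696 and 0.0289 in marker-free cells. For collagen VI, Col6a2 and Col6a1 stood at 1.02 and 0.995 in marker-rich fibroblasts and at 0.328 and 0.264 in tumour cells. Of these pairs Col4a2 to Col4a1 varied least, from 0.679 and 0.706 in marker-rich fibroblasts to 0.560 and 0.478 in tumour cells. Col4a1 and Col4a2 lie head to head on chromosome 8, and in the RefSeq start table their first 22 transcribed bases overlap on opposite strands. By the limits of the whole genes, Col4a1 ends at 11312889 and Col4a2 starts at 11312805, a longer overlap. Whether the counting used strand is not given in the sources used here.

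**Figure D3:**
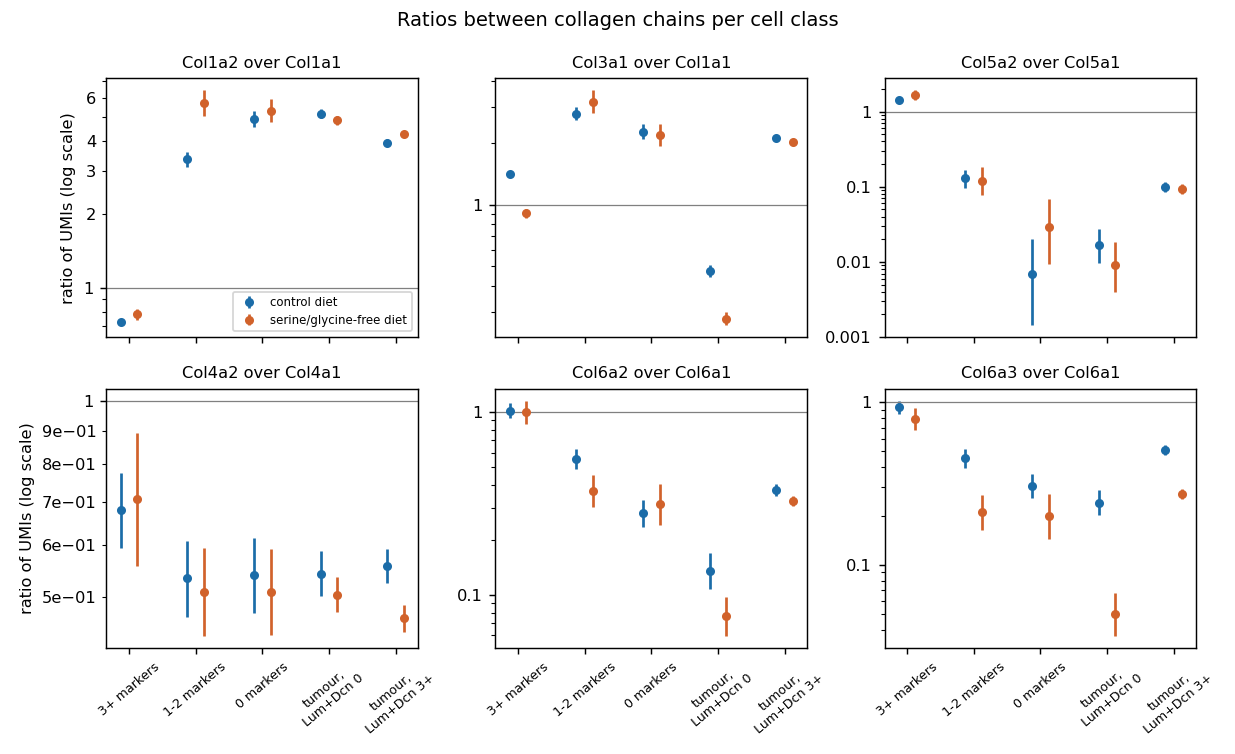
Ratio of UMIs of one collagen chain to another (vertical axes, log scale) in 3 tiers of the fibroblast class and 2 sets of tumour cells, with 95% intervals; blue is the control and orange the serine/glycine-free library. Col1a2 over Col1a1 lies below 1 only in cells with 3 or more markers, and Col5a2 over Col5a1 exceeds 1 only there.

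Across the whole fibroblast class collagen was lower in the serine/glycine-free library, at 4572 CPM (4536 to 4607) in the control and 3262 CPM (3220 to 3304) in the serine/glycine-free library, a ratio of 0.713 (0.703 to 0.724). Of 23 collagens with at least 60 UMIs, 1 was at least 1.5-fold higher, where 4.62% of all genes were, and 6 were at least 1.5-fold lower, where 10.1% were. Their median log2 ratio was -0.35, against -0.07 over all genes tested. Col3a1 stood at 1305 and 664 CPM (ratio 0.509, 0.493 to 0.525), Col6a3 at 96.4 and 58.9 CPM (0.611), Col5a3 at 53.3 and 26.8 CPM (0.503) and Col14a1 at 24 and 9.21 CPM (0.384). Col10a1, the network collagen of growth plate cartilage, stood at 32.4 and 11.3 CPM (0.349) and Col23a1 at 12 and 7.68 CPM (0.641). The higher one was Col28a1, a collagen of nerve sheaths, on 31 and 35 UMIs (2.19, 1.31 to 3.67). Of the genes past the threshold, 31.4% were higher in this scaling and 44.8% when the median gene was set to 1. The control class held a larger share of marker-rich cells (78 of 906 against 35 of 537), and the 10% of cells richest in collagen held 64.7% and 59.5% of the collagen UMIs of the class.

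Within the tiers the direction of the total held while its size varied. The ratio of summed collagen was 0.710 (0.696 to 0.725) in marker-rich fibroblasts, 0.780 (0.755 to 0.805) with 1 or 2 markers and 0.917 (0.889 to 0.946) in marker-free cells. The marker-rich tier was itself mixed differently: 18 and 16 control cells had 6 and 7 markers, against 4 and 1 serine/glycine-free cells. Median collagen per cell was 13708 and 14594 CPM at 3 markers, 20455 and 14248 at 4 and 28752 and 20886 at 5. At 6 markers it was 38983 and 26391 CPM, and at 7 markers 41196 and, in 1 cell, 92586 CPM. The part of this mix in the ratios was not tested. In marker-rich fibroblasts 1 of 18 collagens was at least 1.5-fold higher (6.65% of all genes) and 4 were lower (12.8%), with a median log2 ratio of -0.32 against -0.08 over all genes. Of all genes past the threshold, 34.2% were higher, and 47.6% when the median gene was set to 1. Col3a1, at 10241 and 5106 CPM, had a ratio of 0.499 (0.479 to 0.519), below Col1a1 at 0.776 (0.745 to 0.808) and Col1a2 at 0.835 (0.797 to 0.874). Col5a3 was at 0.597 (0.503 to 0.706), Col8a1 at 0.643 (0.509 to 0.808) and Col14a1, which coats fibres, at 0.414 (0.308 to 0.548). Col15a1, a collagen of the basement membrane zone, was higher at 1.5 (1.26 to 1.80). Of the remaining leading chains, Col5a1 was at 0.725, Col5a2 at 0.844, Col6a2 at 0.922, Col6a1 at 0.942 and Col12a1 at 1.02.

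The marker-rich fibroblasts of the 2 libraries also differed in other markers. Pi16 and Clec3b, markers of one kind of resting fibroblast, stood at 1096 and 252 CPM and at 896 and 235 CPM, while Postn stood at 589 and 654 CPM and Mfap5 at 2226 and 1953 CPM. The summed level of 8 macrophage markers was 38.9 CPM (6 of 8 above 0, Adgre1 and Mrc1 at 0) and 860 CPM (7 of 8 above 0, Mrc1 at 0). The 9 pericyte and smooth muscle markers summed to 407 and 264.5 CPM, with Rgs5, Myh11, Des and Notch3 at 0 in the serine/glycine-free library. The part of these differences in the collagen ratios was not tested. With only 35 cells, single cells weigh on the serine/glycine-free value: without the cell of most collagen UMIs in each library (1797 and 2008 UMIs) the total ratio was 0.632 (0.618 to 0.646), Col3a1 was at 0.416, Col1a1 at 0.667 and Col15a1 at 1.48.

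In tumour cells the total was slightly higher in the serine/glycine-free library, at 1.06 (1.06 to 1.07) times the control. Of 27 collagens 3 were at least 1.5-fold higher (6.53% of all genes) and 2 lower (3.87%). Their median log2 ratio was -0.01, against -0.03 over all genes. Of the genes past the threshold, 62.8% were higher, and 73.1% when the median gene was set to 1. Col4a1 stood at 52.9 and 82.6 CPM, a ratio of 1.56 (1.51 to 1.62), and its partner Col4a2 at 29.6 and 39.5 CPM, a ratio of 1.33 (1.28 to 1.40). The collagen VI chains parted: Col6a1 was at 1.31 (1.26 to 1.37), Col6a2 at 1.05 (0.974 to 1.14) and Col6a3, at 15.3 and 9.65 CPM, at 0.632 (0.585 to 0.682). Col1a2 at 1.09 (1.07 to 1.10), Col1a1 at 1.04 (1.01 to 1.07), Col3a1 at 0.936 (0.913 to 0.959), Col8a1 at 0.918 (0.901 to 0.937) and Col5a1 at 0.971 (0.926 to 1.02) were all near 1, and Col16a1, a minor fibril-associated chain, was at 1.25 (1.2 to 1.31). The other members past the threshold had few UMIs: Col20a1 27 and 61 (2.13), Col28a1 32 and 53 (1.56, 0.986 to 2.50) and Col10a1 102 and 60 (0.553).

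The Col4a1 ratio was above 1 in each tumour set and in the marker-poor cells of the fibroblast class. Its ratio was 1.63 (1.53 to 1.73) in tumour cells with no Lum or Dcn UMI, 1.5 (1.43 to 1.57) in those with 3 or more, 1.56 (1.51 to 1.62) in those with no Car9 and 1.45 (1.32 to 1.59) in those with 2 or more. With 1 or 2 markers it was 1.40 (1.24 to 1.58), in marker-free cells 1.57 (1.40 to 1.77) and in the non-immune cells outside all classes 1.68 (1.57 to 1.81). In marker-rich fibroblasts it was 0.695 (0.584 to 0.824), on 570 and 177 UMIs, and in endothelial cells 1.02 (0.857 to 1.2), on 323 and 251 UMIs. Col6a3 was lower in each of the same 4 tumour sets, at 0.288, 0.665, 0.544 and 0.603. Endothelial markers, whose cells are rich in type IV collagen, summed to 4.9 and 11.5 CPM in tumour cells, none of 7 at 5 CPM or more. In tumour cells without Lum and Dcn they summed to 8.27 and 25.8 CPM, with 2 of 7 at 5 CPM or more in the serine/glycine-free library; their part in the Col4a1 ratio was not tested. In those with 3 or more Lum and Dcn UMIs they summed to 3.18 and 3.68 CPM, and the Col4a1 ratio there was 1.5.

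**Figure D4:**
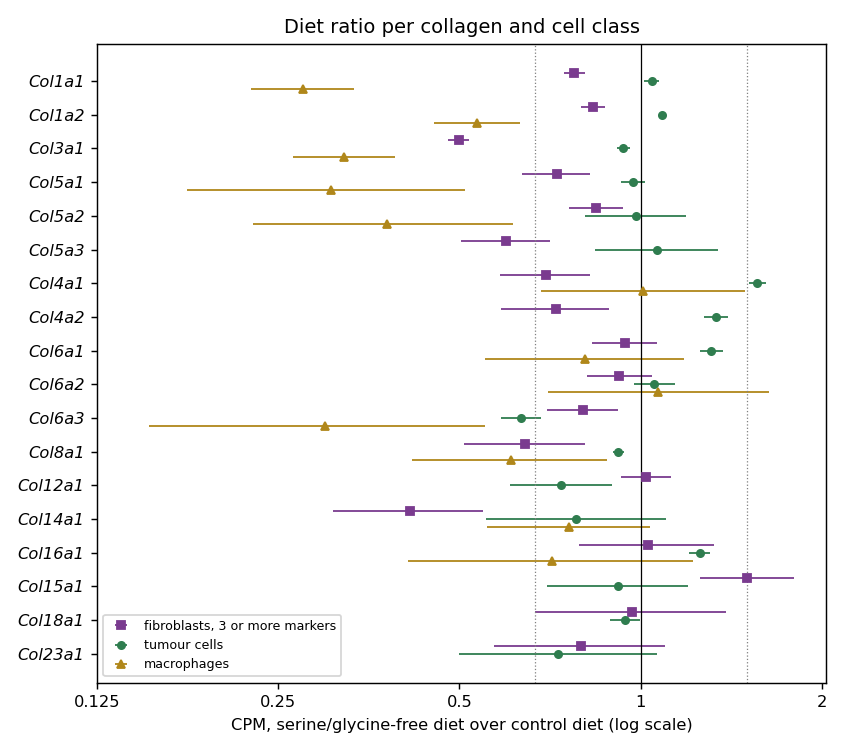
Ratio of the level in the serine/glycine-free library to that in the control library (log scale) for 18 collagens, drawn in each class where they had at least 60 UMIs, with 95% counting intervals, in marker-rich fibroblasts (squares), tumour cells (circles) and macrophages (triangles). Dotted lines mark 1.5-fold either way. Col4a1 lies on opposite sides of 1 in marker-rich fibroblasts and tumour cells.

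Macrophages held little collagen RNA, and most of it sat in a few cells. Summed collagen was 299.6 CPM (287 to 312) in the control and 141 CPM (133 to 150) in the serine/glycine-free library, a ratio of 0.471 (0.437 to 0.508). Of 12 collagens none was at least 1.5-fold higher (3.20% of all genes) and 7 were lower (5.72%), with a median log2 ratio of -0.59 against -0.09 over all genes. The 7 were Col1a1 at 68.1 and 18.7 CPM, Col3a1 at 61.2 and 19.7, Col1a2 at 60.1 and 32.2, Col8a1 at 11.2 and 6.81, Col5a1 at 9.26 and 2.84, Col5a2 at 8.98 and 3.40 and Col6a3 at 6.63 and 1.99 CPM. The median gene stood at a log2 ratio of -0.12, and relative to it Col1a1 was at 0.298, Col3a1 at 0.349 and Col1a2 at 0.581. Of the genes past the threshold, 35.9% were higher, and 57.2% when the median gene was set to 1.

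The 70 and 64 macrophages richest in collagen held 94.8% and 90.3% of the class's collagen UMIs. For Col3a1 the 10 highest cells held 385 of 443 UMIs in the control and 114 of 139 in the serine/glycine-free library. The 11 fibroblast markers were all above 0 in the class in both libraries, summing to 179 and 130.3 CPM, with 7 and 3 of them at 5 CPM or more; their part in the result was not tested. In the 601 and 569 macrophages without a UMI of Lum, Dcn or the 7 markers, Col3a1 was down to 15 and 10 UMIs and Col1a1 to 16 and 7, and the total ratio was 0.787 (0.663 to 0.932). Of the 3 collagens with at least 60 UMIs there, none was higher (3.38% of all genes) and 1, Col8a1 at 0.417, was lower (5.31%), with Col1a2 at 0.841. T cells had a total ratio of 0.479 (0.322 to 0.713), on 53 and 54 UMIs.

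Col14a1 UMIs in macrophages were few per cell. The gene had 100 UMIs in 66 control cells and 74 UMIs in 59 serine/glycine-free cells, with at most 14 and 3 UMIs in 1 cell, and T cells had none, which makes macrophages at least 3.11-fold and 5.03-fold higher with 3 UMIs set for the T cell class. Of these, 72 and 70 UMIs, in 54 and 55 cells, lay in macrophages without fibroblast RNA, so the diet ratio there was 0.969 (0.687 to 1.37), against 0.760 (0.555 to 1.04) in the whole class. After thinning, 2.62% and 1.86% of macrophages had a UMI of Col14a1, against 9.51% and 9.34% without thinning, at median depths of 9585 and 10472 UMIs; the T cell shares were 0 of 117 and 0 of 193 thinned cells, with upper bounds of 3.10% and 1.89%, above the macrophage shares. Col6a6, a collagen VI-like chain, was likewise spread, at 23 UMIs in 19 cells and 20 UMIs in 16 cells.

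Tumour cells with RNA for the collagen-binding proteoglycans Lum and Dcn carried a second set of collagens. Cells with at least 3 UMIs of the pair, 1757 and 2176, were set against cells with none, 1671 and 1810, of the same library. The median depth was 26600 and 24524 UMIs in the Lum and Dcn sets and 23725 and 22330 UMIs in the cells with none. A doublet score over 0.25, meant as a sign of a possible mix of cells, occurred in 41 and 21 cells against 7 and 8. The automatic doublet call of the method behind this score did not work on these libraries. The part of depth and doublets in the ratios was not tested. Of 22 collagens in the control library 13 were at least 1.5-fold higher (7.21% of all genes) and none lower (3.16%), and of 19 in the serine/glycine-free library 9 were higher (7.89%) and none lower (4.40%). The filter sums both sets, so some members, such as Col12a1 in the control library, passed it only through the Lum and Dcn set where they are high. The same holds for the share over all genes. The median log2 ratio was 0.43 and 0.36, against -0.01 and -0.01 over all genes. Col3a1 stood at 207 against 30.6 CPM in the control (ratio 6.75, 6.36 to 7.16) and 195 against 20.6 CPM in the serine/glycine-free library (9.49, 8.86 to 10.2). The 3 main collagen VI chains followed, with Col6a1 at 3.04 and 2.72, Col6a2 at 8.41 and 11.5 and Col6a3 at 6.41 and 14.8. Col1a2 differed far less, at 1.16 (1.13 to 1.18) and 1.15 (1.12 to 1.17), and Col8a1 was on the other side of 1, at 0.890 (0.863 to 0.917) and 0.779 (0.756 to 0.803). Col4a1 stood at 1.40 and 1.29, Col16a1 at 1.33 and 1.41, Col5a1 at 1.61 and 1.79 and Col1a1 at 1.52 and 1.30.

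The low-count members past the threshold were mostly those that mark fibroblasts. Col12a1 had 238 UMIs against 0 in the control library, at least 63.9-fold higher with 3 UMIs set for the cells at 0, and 186 against 2 in the serine/glycine-free library (66.3, 18.1 to 552). Col5a2 was at 9.52 and 18.2 and Col5a3 at 19.2 and 6.72. In the control library Col14a1 was at 8.86, Col23a1 at 5.24, Col10a1 at 12.9 and Col15a1 at 2.12, while in the serine/glycine-free library Col24a1, a fibrillar chain of bone, was at 1.56 (0.913 to 2.76). The 11 fibroblast markers summed to 625 and 1046 CPM in the Lum and Dcn set, of which both genes themselves are part, and to 16.8 and 16.2 CPM in the other. Of the tumour class, 105 control and 152 serine/glycine-free cells had 2 or more of the 7 markers that do not include Lum and Dcn.

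Leaving those cells out split the group. Of 16 collagens in each library, 5 control and 6 serine/glycine-free collagens were then at least 1.5-fold higher (6.60% and 7.35% of all genes) and 0 and 1 lower (3.34% and 4.49%). Col3a1 was still at 5.57 (5.24 to 5.92) and 8.32 (7.75 to 8.93), Col6a1 at 2.84 and 2.58, Col6a2 at 7.24 and 10.1 and Col6a3 at 5.61 and 13.0; the rest were Col10a1 at 12.5 in the control library and Col5a3 at 3.33 and Col5a1 at 1.66 in the serine/glycine-free library. Col1a1 moved to 1.18 (1.12 to 1.24) and 1.02 (0.970 to 1.07), and Col1a2 to 1.09 and 1.09. Col12a1, Col5a2 and Col14a1 no longer reached 60 UMIs. The member on the lower side was Col15a1, on 21 against 45 UMIs.

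**Figure D5:**
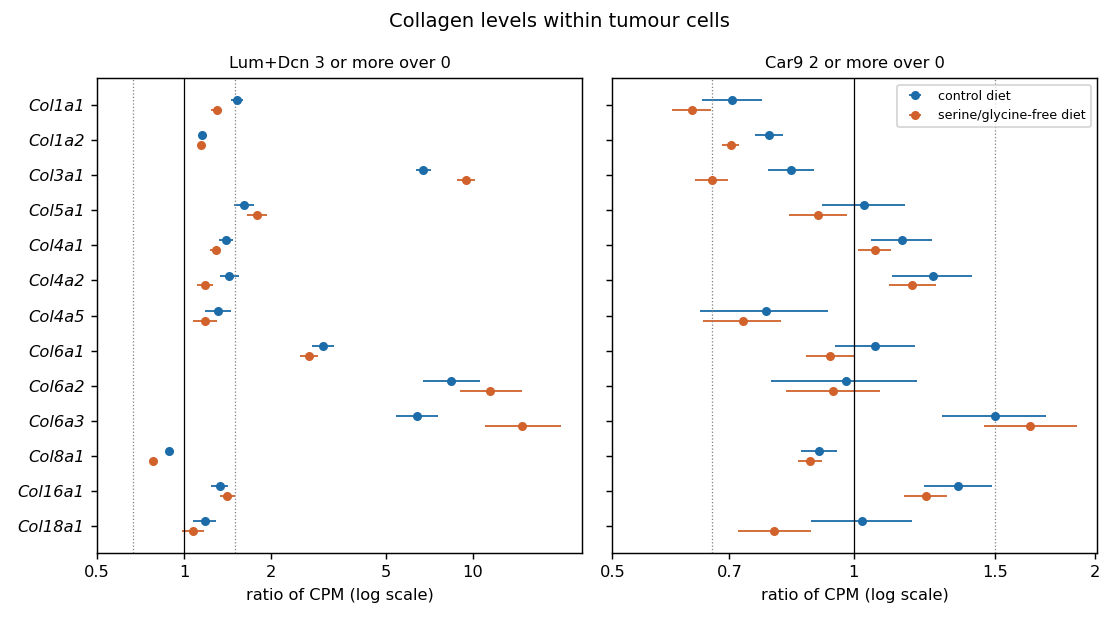
Ratio of collagen levels (log scale) between sets of tumour cells of the same library, with 95% counting intervals; left, at least 3 UMIs of Lum and Dcn over none; right, at least 2 UMIs of Car9 over none. Col3a1 and the collagen VI chains lie to the right of 2 in the left panel in both libraries, and Col1a1 and Col1a2 lie left of 1 in the right panel.

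Car9, carbonic anhydrase IX, is a known target gene of the response to low oxygen. Tumour cells with at least 2 UMIs of it, 334 and 868, were set against cells with none, 3487 and 3395. The median depth was 25615 and 27471 UMIs in the Car9 sets and 25029 and 21428 UMIs in the cells without; its part in the ratios was not tested. Summed collagen was 908 against 1025 CPM in the control and 912 against 1125 CPM in the serine/glycine-free library, ratios of 0.886 (0.867 to 0.906) and 0.811 (0.799 to 0.822). Of 22 control collagens 1 was at least 1.5-fold higher (2.60% of all genes) and 6 lower (10.6%), and of 20 serine/glycine-free collagens 2 were higher (2.11%) and 6 lower (13.4%). The median log2 ratio of the collagens was -0.12 and -0.10, against -0.10 and -0.12 over all genes tested. Of all genes past the threshold 19.7% and 13.7% were higher, and 41.3% and 37.8% when the median gene was set to 1, a scaling shift of -0.16 and -0.20 on the log2 scale.

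Among the well-measured members Col1a1 and Col1a2 were lower and Col6a3 higher in both libraries, while the side of Col3a1 in the control library depended on which cells were kept. Relative to the median gene, Col1a1 was at 0.789 and 0.721, Col1a2 at 0.877 and 0.808 and Col3a1 at 0.935 and 0.765. Col6a3 was at 1.68 and 1.91, from 21.7 against 14.4 CPM and 13.1 against 7.85 CPM, and Col16a1 at 1.51 and 1.41. Col4a1 was at 1.28 and 1.22 and Col4a2 at 1.40 and 1.36, while Col8a1 stood at 1.01 and 1.01 and Col4a5 at 0.868 and 0.835. Before that scaling Col6a3 was at 1.5 (1.29 to 1.74) and 1.66 (1.45 to 1.90) and Col1a1 at 0.706 (0.647 to 0.768) and 0.628 (0.594 to 0.663). In the serine/glycine-free library Col3a1 was at 0.666 (0.635 to 0.697), just past the threshold, and in the control library at 0.837 (0.783 to 0.893).

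The other members past the threshold rested on few UMIs. In the control library they were Col10a1 with 3 UMIs in the Car9 set, Col15a1 with 3, Col5a2 with 2, Col12a1 with 1, Col23a1 with 1 and Col14a1 with 0, against 99, 108, 194, 216, 65 and 76 in cells without Car9. In the serine/glycine-free library Col6a5, Col15a1, Col24a1 and Col14a1 were lower, on 20, 12, 11 and 9 UMIs, and Col12a1 was higher, on 40 against 62 UMIs (1.93, 1.27 to 2.92). The 11 fibroblast markers summed to 279 CPM in the Car9 set and 308 CPM in cells without Car9 in the control library, with Postn at 0 in the Car9 set, and to 481 and 565 CPM in the serine/glycine-free library. Without tumour cells of 2 or more of the 7 markers, Col6a3 was at 1.64 and 1.72, Col1a1 at 0.810 and 0.644 and Col1a2 at 0.804 and 0.707, while Col3a1 was at 1.01 (0.940 to 1.07) in the control and 0.725 (0.690 to 0.762) in the serine/glycine-free library. In those cells 2 control and 5 serine/glycine-free members were past the threshold in either direction, at shares of all genes of 2.76% higher and 10.2% lower, and 2.04% and 13.3%.

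Genes that make, fold and crosslink collagen were listed by role. The list of prolyl and lysyl hydroxylation covers modification of the chains in the endoplasmic reticulum. Not all of its members are hydroxylases: Colgalt1 is a galactosyltransferase and Ppib a prolyl isomerase. In the Car9 sets 5 of 12 measured were at least 1.5-fold higher in each library (2.60% and 2.11% of all genes) and none lower (10.6% and 13.4%), with a median log2 ratio of 0.22 and 0.16 against -0.10 and -0.12 over all genes. The lead genes were P4ha2, a subunit of prolyl 4-hydroxylase, at 70.0 against 16.5 CPM (4.24, 3.87 to 4.65) and 88.3 against 25.7 CPM (3.43, 3.23 to 3.65), and Plod2, a lysyl hydroxylase, at 3.10 and 2.37. At the other end P3h1 was at 0.846 and 0.752 and Ppib at 0.855 and 0.852. Between diets, P4ha2 and Plod2 were also the highest of the list in tumour cells, at 1.79 (1.70 to 1.88) and 1.60 (1.54 to 1.67), with Colgalt1 at 0.795 and Plod3 at 0.907 the lowest, and 2 of 14 were past 1.5-fold higher (6.53% of all genes) and none lower (3.87%), with a median log2 ratio of -0.02 against -0.03 over all genes. The serine/glycine-free library also held more tumour cells with at least 2 Car9 UMIs, 868 of 4613 against 334 of 4121. Within cells without Car9 the diet ratio was 1.56 (1.46 to 1.67) for P4ha2 and 1.49 (1.41 to 1.57) for Plod2, and within the Car9 sets it was 1.26 (1.16 to 1.38) and 1.13 (1.04 to 1.23), so that of these 4 ratios 1, P4ha2 in cells without Car9, was past 1.5-fold. In marker-rich fibroblasts 3 of 13 were lower (12.8% of all genes) and none higher (6.65%) between diets, with a median log2 ratio of -0.03 against -0.08 over all genes, and with Plod2 at 0.539 and P3h1 at 0.610 lowest and Plod1 at 1.27 and P4ha1 at 1.22 highest.

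Crosslinking enzymes tie fibres together outside the cell. In marker-rich fibroblasts Lox stood at 669 CPM in the control and 374 CPM in the serine/glycine-free library (0.560, 0.480 to 0.651) and Loxl2 at 523 and 303 CPM (0.580), while Loxl3 stood at 152 and 282 CPM (1.86) and Tgm2, a transglutaminase, at 52.9 and 83.5 CPM (1.58), so 2 of 5 lay past the threshold each way (6.65% of all genes higher and 12.8% lower), with a median log2 ratio of -0.27 against -0.08 over all genes. In tumour cells Lox was under 1 CPM in both libraries. Of 4 procollagen processing genes 1 was lower (12.8% of all genes) and none higher, with a median log2 ratio of -0.19: Bmp1, which trims the procollagen tail, was at 485 and 301.1 CPM (0.621, 0.521 to 0.736), while Pcolce2 was at 0.786, with Pcolce at 1.10 and Adamts2 at 0.957. Of the chaperones and secretion genes none of 8 was past 1.5-fold in marker-rich fibroblasts (6.65% of all genes higher and 12.8% lower). Their median log2 ratio was -0.29 against -0.08 over all genes, with Mia3 at 0.686, Creb3l1 at 0.694, Mia2 at 1.41 and Sec24d at 1.15. In tumour cells none of 10 was (6.53% of all genes higher and 3.87% lower), with a median log2 ratio of -0.13 against -0.03 over all genes. Sec13 at 0.802 and Fkbp10 at 0.829 were lowest there, and Fkbp14 at 1.05 and Creb3l1 at 1.04 highest.

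Glycine and proline are the main residues of the collagen helix, so the genes that make them were listed as well. All 5 measured genes of serine and glycine synthesis were at least 1.5-fold lower in the serine/glycine-free library over the fibroblast class (10.1% of all genes), with a median log2 ratio of -0.90 against -0.07 over all genes. Phgdh, the first enzyme of the route, stood at 289.5 and 164 CPM (0.566, 0.530 to 0.604) and Psat1, the next, at 111 and 54.4 CPM (0.491). Shmt2 and Shmt1, which turn serine into glycine, were at 0.481 and 0.311, and Psph was at 0.640. The lower level was not particular to cells with fibroblast markers. Median log2 ratios of the list were -0.99 in marker-free cells and -0.79 in non-immune cells outside all classes, each against -0.08 over all genes. In marker-rich fibroblasts 2 of 4 were lower (12.8% of all genes) and none higher, with Phgdh at 0.368 and Psat1 at 0.442 but Psph at 0.861 and Shmt2 at 1.10, and a median log2 ratio of -0.62 against -0.08 over all genes. In tumour cells none of the 5 was past the threshold, with a median log2 ratio of -0.37, from Shmt2 at 0.696 and Shmt1 at 0.710 to Phgdh at 0.770 and Psat1 at 0.783. Of the genes of proline synthesis, Pycr1 was at 0.376 in the fibroblast class, past the threshold, and at 0.673 in tumour cells. Of 9 collagen receptors in tumour cells 3 were higher (6.53% of all genes) and none lower (3.87%), with a median log2 ratio of 0.0013 against -0.03 over all genes: Itga10 was at 2.70 (2.34 to 3.13), Itga2 at 2.19 (1.45 to 3.37) and Itga1 at 1.71, and Ddr2 at 0.793 and Mrc1 at 0.825 were lowest.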

How the data were processed

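Each deposited matrix gives UMI counts, which the authors made with Cell Ranger 7.1.0 per the file headers; version 2.2.2 and build mm10 stand in the submitters' processing notes. Only barcodes called cells were deposited, and the extraction text in the labels describes human heart tissue although organism, source and design name mouse tumours. Counts were summed per class and library and divided by the class total without 650 T cell receptor and immunoglobulin genes to give CPM (python 3.11.15, numpy 2.4.6, scipy 1.17.1, pandas 2.3.3). Levels have exact Poisson and ratios exact conditional binomial intervals. A gene was measured in a comparison with at least 60 UMIs over both sets and counted as higher or lower at a ratio of 1.5 or its inverse. A gene can thus pass the filter only through the set where it is high, among collagens as among all genes. With 1 library per group these counts describe the libraries, not the diets. The plan was to name in each class the 8 collagens with most UMIs and all past 1.5-fold. Not all of these are given for every class and comparison. Of each other list up to 2 highest and 2 lowest are named, and other named genes of those lists were picked after their values were seen. The Scrublet method in scanpy 1.11.5 marked 9 and 0 cells as doublets and so did not work; no doublet was removed, and 159 and 145 cells scored over 0.25. Gene coordinates and promoters come from RefSeq tables on GRCm38.p6. Steps were tested on simulated sums with counting error only and no spread between cells, unlike the real data. There 6.26% of unchanged genes were called in marker-rich fibroblasts, 0.698% in tumour cells and 1.23% in macrophages. Members and lists were chosen with earlier results of these data known. The receptor contig tables were not used. Part of the proline gene list is not reported here.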

Additional observations from a re-analysis of the deposited data

Results flagged for a closer look

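Each entry here is a ratio that lay on opposite sides of 1 in cell classes or libraries; with 1 library per diet the difference was not tested. The diet ratio (serine/glycine-free over control) of Col1a1 was 0.776 in marker-rich fibroblasts, 0.275 in macrophages and 1.04 in tumour cells. That of Col1a2 was 0.835 in marker-rich fibroblasts, 0.536 in macrophages and 1.09 in tumour cells. Col4a1 was at 0.695 in marker-rich fibroblasts and 1.56 in tumour cells, and Col4a2 at 0.723 and 1.33. Within tumour cells, the ratio of Car9-positive cells (2 or more UMIs) over cells without Car9 was 0.0444 (control) and 1.93 (serine/glycine-free) for Col12a1, and 0.148 and 3.26 for Col23a1, both on 1 UMI in the control Car9 set; Col23a1 rested on 25 against 23 UMIs in the serine/glycine-free library, under the filter of 60. Without tumour cells of 2 or more fibroblast markers neither gene reached 60 UMIs in either library.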

How the results depend on the processing

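No paired analysis was possible because each diet has 1 library and no replicate. With the median gene set to 1, the diet ratio of summed collagen was 0.762 in fibroblasts, 0.755 in marker-rich fibroblasts, 1.11 in tumour cells and 0.511 in macrophages, and with cells weighted equally 0.687, 0.770, 1.10 and 0.545. With class rules applied to cells thinned to 5000 UMIs it was 0.630, 0.692, 1.04 and 0.663. Without cells of doublet score over 0.25 the macrophage ratio was 0.415, in macrophages with Ptprc and no Pdgfra or Pdgfrb 0.616, and without fibroblast RNA 0.787. Marker-rich fibroblasts gave 0.642 at 3 or more Pdgfra and Pdgfrb UMIs and 0.632 without the top cell of each library, and tumour cells 1.09 at 3 or more Krt20 UMIs. Each of these totals kept its side of 1.

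Members past 1.5-fold in either direction numbered 7 in fibroblasts, 5 in marker-rich fibroblasts, 5 in tumour cells, 7 in macrophages, 13 and 9 in the control and serine/glycine-free Lum and Dcn sets, and 7 and 8 in the Car9 sets. With no UMI filter they numbered 22, 12, 16, 19, 26, 23, 22 and 25. A filter of 200 UMIs left 2 in tumour cells, 3 in macrophages, 8 in the control Lum and Dcn sets and 2 and 3 in the Car9 sets, since fewer genes were measured. Equal weight of cells gave 8 in tumour cells, 3 or more Pdgfra and Pdgfrb UMIs 8 in marker-rich fibroblasts, and thinned rules 12 in fibroblasts and 4 in the serine/glycine-free Car9 sets. The stricter macrophages gave 3 and those without fibroblast RNA 1. Car9 of 5 or more gave 11 in the control library. Tumour cells with at most 1 fibroblast marker gave 5 in the control Lum and Dcn sets and 2 and 5 in the Car9 sets. For the changed UMI filters, equal weights, thinned rules and stricter class thresholds no share over all genes was computed. The counts under those settings are not read as results about collagens.

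Single genes crossed 1 in 7 cases; the cause was not tested. In the Car9 sets Col8a1 was at 1.01 in both libraries with the median gene set to 1 and at 1.01 in the control library on thinned cells. Col4a1 there was at 0.994 in the serine/glycine-free library with cells weighted equally, and Col3a1 at 1.01 in the control library among cells with at most 1 fibroblast marker. Between diets Col4a1 was at 0.787 in fibroblasts with 3 or more Pdgfra and Pdgfrb UMIs, and Col3a1 at 1.01 in tumour cells with 3 or more Krt20 UMIs. The sets by number of fibroblast markers, without fibroblast RNA and without the top cell were chosen after seeing the data.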
